A study of Mus musculus with 2 samples.

Results

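The desmin network and its small heat shock proteins, 10 genes in all, were followed in long-read RNA sequencing of mouse gastrocnemius, a calf muscle. They were Des, Flnc, Bag3, Cryab, Hspb1, Hspb2, Hspb3, Hspb6, Hspb7 and Hspb8, chosen by name, and they make up 10 of the 15324 annotated genes with a read in either library. All transcript models carrying these gene names were taken, 92 of 49389 models in replicate 1 and 111 of 71056 models in replicate 2. Each model had its count of reads and its chain of exons. The files put each model in a class: Known models match an annotated transcript, ISM models hold a consecutive part of one, NIC and NNC models join known or unannotated splice sites in another way, and Genomic models overlap a gene without its splicing.

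The 2 libraries came from untreated females of the hybrid strain B6CASTF1/J, a cross of C57BL/6J and CAST/EiJ, at the age of 36 days, and each was begun from 2 µg of total RNA. The labels number the females separately but list both tissue samples under 1 donor entry. They form 1 group, so every test below compares these 2 libraries and not conditions, and its p-value measures only the reads of these libraries. The reads of both parental alleles are held together in the counts.

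Annotated mouse genes took 797105 reads in replicate 1 and 1602272 in replicate 2. Levels are given as CPM, a gene's part of these reads on the usual common scale, so that 1 read is worth 1.25 CPM and 0.624 CPM, and a count of 0 allows up to 3.76 CPM and 1.87 CPM (3 counts). The labelled tissue was checked first: all 6 skeletal muscle markers were read in both libraries and held 25.06% and 21.02% of the reads, while 6 cardiac muscle markers held 1 and 4 reads in sum. The libraries stood apart in the 9 slow fibre markers, which summed to 42.7 CPM in replicate 1 and 9540 CPM in replicate 2. Myh7, Myl2, Myl3 and Myoz2 were at 0 in replicate 1, and Myh2, the myosin of fast oxidative fibres, was at 0 there too. Markers of other cells were also unequal. Blood markers summed to 2556 and 554 CPM (4 of 5 lower in replicate 2), adipocyte markers to 458 and 76.8 CPM (3 of 5 lower), fibroblast markers to 2460 and 1049 CPM (2 of 5 lower) and Schwann cell markers to 350 and 157 CPM (1 of 5 lower). Endothelial markers summed to 95.3 and 90.5 CPM and satellite cell markers to 36.4 and 30.6 CPM, with none called, and immune markers to 36.4 and 58.7 CPM, with 1 of 5 higher. Not all had enough reads to be tested: 3 of 5 adipocyte, 3 of 5 Schwann cell, 4 of 5 endothelial, 2 of 5 satellite cell and 3 of 5 immune markers were. Pax7 and Myf5 of satellite cells and Ptprc and Cd68 of immune cells were at 0 in replicate 1. In whole tissue, fewer cells of a type and less RNA per cell cannot be told apart.

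Desmin is the intermediate filament protein of muscle: it ties neighbouring myofibrils to each other at the Z-disc and to the cell membrane. Filamin C crosslinks actin at the same place and unfolds under load. Damaged filamin is removed by chaperone-assisted selective autophagy, in which the co-chaperone BAG3 joins HSPB8 to an HSP70 chaperone. The small heat shock proteins are chaperones that need no ATP and hold partly unfolded proteins in solution. αB-crystallin, encoded by Cryab, is the one best known for binding desmin, and mutations in Des, Flnc, Cryab and Bag3 cause myofibrillar myopathy in humans.

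Des was the most abundant of the 10 genes. Hspb3 had the lowest mean over all models, but Hspb7 was lower than Hspb3 in replicate 1, and its mean was the lower one (20.9 against 37.1 CPM) without single-exon models outside the annotation. These levels count long reads and are not divided by transcript length. Whether the length of the mRNA affected them was not tested. Des reached 3296 ± 697 CPM (SD, n = 2, as for all means below), and 1969 CPM without those single-exon models. Hspb6 followed at 456 ± 287 CPM and Cryab at 422 ± 262 CPM. Hspb8 stood at 305 ± 79.8 CPM, Hspb1 at 200.5 ± 13.9 CPM and Hspb2 at 148 ± 6.55 CPM. Flnc had 110 ± 12.3 CPM, Bag3 had 87.5 ± 31.5 CPM, Hspb7 had 39.3 ± 41.4 CPM and Hspb3 had 33.5 ± 0.562 CPM. In this order the values of the 2 libraries overlapped between Hspb6 and Cryab, between Cryab and Hspb8, and between each neighbouring pair from Flnc down to Hspb3. They did not overlap between Des and Hspb6, between Hspb8 and Hspb1, between Hspb1 and Hspb2, or between Hspb2 and Flnc.

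**Figure D1:**
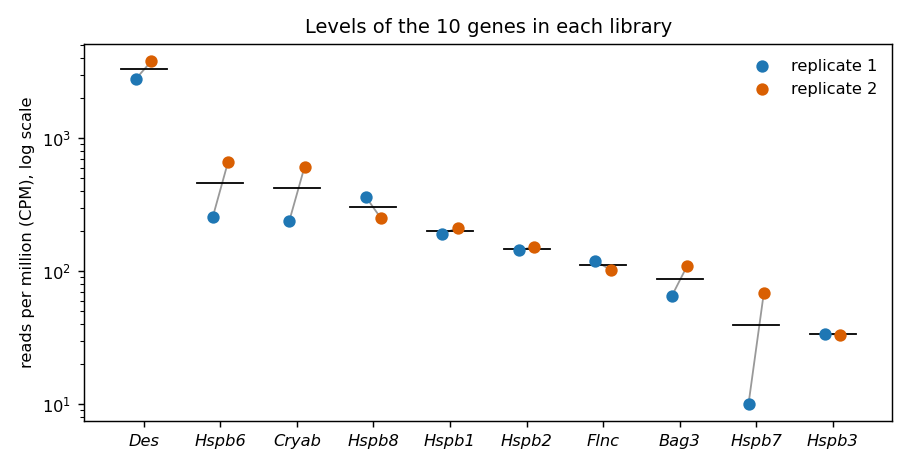
CPM of each of the 10 genes on a log axis, with 1 point per library, a grey line joining the libraries and a black bar at their mean. Des lies far above the rest, and Cryab, Hspb6 and Hspb7 show the widest gaps between replicate 1 and replicate 2.

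Cryab, Hspb6 and Hspb7 were higher in replicate 2, and no member was lower there by the rule used for all genes. That rule asked for an adjusted p under 0.05 in Fisher's exact test (two-sided, Benjamini-Hochberg over 8096 genes with at least 10 reads) and a difference of at least 2-fold. It called 3 of 10 members higher in replicate 2, against 5.78% of all genes tested, and 0 lower, against 5.47%. In either direction 11.3% of all genes were called. Over all genes the calls were 468 higher and 443 lower, and 348 higher and 568 lower when Atp2a1, the calcium pump of fast fibres, was left out of the total. An adjusted p under 0.05 without regard to size was found for 6 of the 10 members and for 20.3% of all genes. Such a p is reached more readily with more reads. The members held 80 to 8305 reads over both libraries, whereas all genes entered from 10 reads, so these shares are not alike in depth. The median log2 ratio of replicate 2 over replicate 1 was 0.29 over the members and 0.06 over all genes tested.

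**Figure D2:**
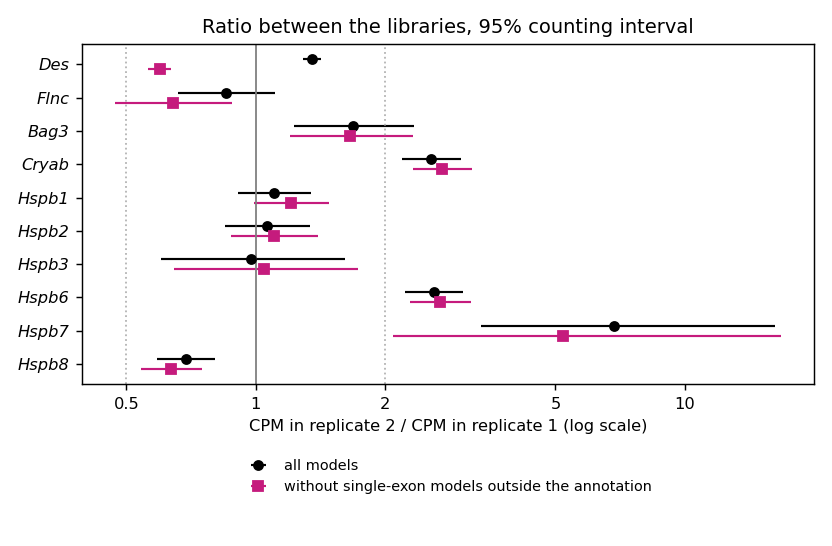
CPM in replicate 2 divided by CPM in replicate 1 for each gene, on a log axis, with exact 95% intervals for counting error. Black circles count all models and pink squares leave out single-exon models outside the annotation. Cryab, Hspb6 and Hspb7 lie right of the dotted line at 2 in both, and Des moves from 1.35 to 0.597.

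Des lies on the plus strand at chr1:75360329-75368579 in the mm10 build (ENSMUSG00000026208.9). Its only annotated coding transcript, Des-201, has 9 exons, 3028 bases and a coding sequence of 1407 bases without the stop codon. Des had 2234 reads in replicate 1 and 6071 in replicate 2, which gave 2803 and 3789 CPM. The ratio was 1.35 (95% interval 1.29 to 1.42), under the 2-fold line, with an adjusted p of 6.66e-34 in Fisher's exact test. That direction came from single-exon models. Des-201 itself held 1770 reads in replicate 1 and 1899 in replicate 2, which is 79.2% (exact interval 77.5% to 80.9%) and 31.3% (30.1% to 32.5%) of the gene's reads. Without single-exon models outside the annotation, 1833 and 2056 reads remained, and Des was lower in replicate 2, at a ratio of 0.597. Counting only models that match an annotated transcript, the ratio was 0.526. Both lie under the 2-fold line as well. Smooth muscle, which also makes desmin, was represented by 7 markers that summed to 230 CPM in replicate 1 and 195 CPM in replicate 2; their part in the Des level was not tested.

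The single-exon Des models lay at the 3′ part of the gene and ended short of the annotation. In replicate 2, 4015 reads, or 66.1% (64.9% to 67.3%) of the gene, belonged to 1 model at chr1:75367009-75367713. In replicate 1, 401 reads, or 17.9% (16.4% to 19.6%), belonged to 1 model at chr1:75366074-75367718, whose start lies inside the intron before exon 8 and which spans the last intron. The last exon of Des-201 has 1571 bases, which is 51.9% of the mRNA, and only its first 42 bases are coding, the stop codon included. The deposited models give 1 span for all their reads, so where single reads began is not held in the files.

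Nearly all Des reads outside the annotation belonged to models that end well before the annotated 3′ end at base 75368579. In replicate 1, 462 of 464 such reads were in models ending at base 75367718, and in replicate 2, 4170 of 4172 were in models ending at base 75367713. Reads of a model share its end in the files, so the spread of single read ends around these bases is not held there. These ends lie 861 and 866 bases short of the annotated end and leave 668 and 663 bases of the 1529-base 3′ UTR. The polyadenylation signal AATAAA begins 22 and 17 bases before them, with the end base counted. The 20 bases that follow hold 2 and 5 A, so neither end lies before a run of A. The sequence is shown because the models that hold most Des reads of replicate 2 end there. It reads 5′ to 3′ on the plus strand, chr1:75367684-75367713, from the GENCODE M21 transcript, with the signal in capitals:
Des, 30 bases up to the end in replicate 2: ggacagaaacaatAATAAAgagacaagcac
Reads of Des-201 carry the annotated ends in these files, so how many of them also stop here cannot be counted. The antisense gene Gm15179 overlaps the last part of the annotated Des exon, beyond these ends, and had 23 and 76 reads.

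All 7 internal exons of Des were included in every read that could tell, from 1785 reads per exon upward in replicate 1 and from 1925 in replicate 2. The last intron was spanned by models holding 401 of 2225 reads in replicate 1 (18.0%) and 0 of 2043 in replicate 2. This difference passed the rule for shares, which asks for 10 percentage points (adjusted p = 5.12e-119, Fisher's exact test). The 401 reads are those of the single-exon model, and without single-exon models the counts were 0 of 1824 and 0 of 2043. Its 1 span stands for all its reads, so whether each read spans the intron is not held in the files. The other 7 introns were spanned in at most 0.412% of reads.

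Flnc lies on the plus strand at chr6:29433256-29461883 (ENSMUSG00000068699.12) and is the longest mRNA of the 10: Flnc-202 has 47 exons and 8939 bases. It had 95 reads in replicate 1 and 163 in replicate 2, or 119 and 102 CPM. The ratio of 0.854 (0.659 to 1.11) did not differ beyond counting error (adjusted p = 0.470, Fisher's exact test). Complete reads were few. Flnc-202 was matched by 6 reads (6.32%) in replicate 1 and 1 read (0.614%) in replicate 2, and the share of Known models did not pass (adjusted p = 0.0775, Fisher's exact test). Without ISM and Genomic models, 11 and 1 reads remained, and Flnc was then called lower in replicate 2, at a ratio of 0.0503 (adjusted p = 0.000801, Fisher's exact test).

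The typical Flnc read was in a model of the 3′ part of the gene, with fewer exons in replicate 2. The median read held 11 exons in replicate 1 and 2 exons in replicate 2. At least 10 exons were held by 50 reads (52.6%) in replicate 1 and by 24 (14.7%) in replicate 2, and at least 46 exons by 10 and 2 reads. The intron nearest the 3′ end was spliced in 78.9% of the Flnc reads of replicate 1 and in 55.2% of those of replicate 2. The intron nearest the 5′ end was spliced in 9 and 1 reads. Single-exon models of the last exon held 18 reads (18.9%) and 70 reads (42.9%), which passed the test of the leading transcript (adjusted p = 0.000898, Fisher's exact test). Of the reads outside the annotation, 88 of 89 and 160 of 162 were in models that end at the annotated 3′ base, to which the files may have set them, so where single reads ended was not measured. Shorter models named by their exons from the 3′ end held 8 and 0 reads at 27 exons, 5 and 1 reads at 14, 10 and 20 reads at 4, 4 and 19 reads at 3, and 0 and 15 reads at 2.

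**Figure D3:**
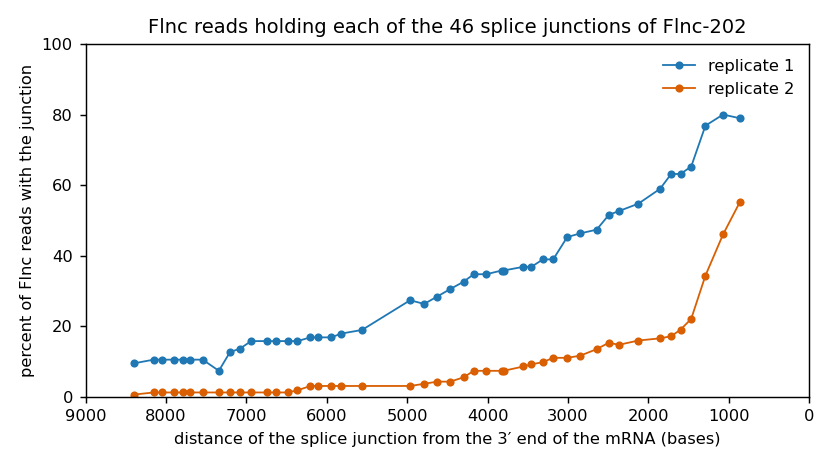
Percent of all Flnc reads that hold each of the 46 splice junctions of Flnc-202, against the distance of the junction from the 3′ end of the mRNA in bases. Both curves fall toward the 5′ end, from 78.9% to 9.47% in replicate 1 and from 55.2% to 0.614% in replicate 2.

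Filamin C has a flexible stretch called hinge 1, encoded by an exon that one annotated transcript, Flnc-201, keeps and Flnc-202 leaves out. That exon lies at chr6:29452799-29452897, between exons 30 and 31 of Flnc-202. It has 99 bases, 33 codons, and begins between codons, so the reading frame is the same with or without it. No read held it: 0 of 35 reads in replicate 1 and 0 of 14 in replicate 2 that crossed the site. Together 0 of 49 allows a share of up to 6.12% (3 counts), and the exact interval reaches 7.25%. The exon and the junction that the reads used are shown 5′ to 3′ on the plus strand, from the GENCODE M21 transcripts. In the upper line the exon is in capitals between 15 coding bases on either side, and in the lower line the bases after the junction are in capitals:
Flnc-201, hinge exon kept: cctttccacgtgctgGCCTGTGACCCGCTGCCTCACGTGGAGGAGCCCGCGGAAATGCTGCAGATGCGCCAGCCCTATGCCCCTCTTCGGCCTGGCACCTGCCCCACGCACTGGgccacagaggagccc
Flnc-202, hinge exon left out: cctttccacgtgctgGCCACAGAGGAGCCC
All 49 reads carried the lower form.

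A further Flnc exon is absent from the annotation. It lies at chr6:29441974-29442036, between exons 8 and 9 of Flnc-202, and its 63 bases are a multiple of 3. Its sequence was not read here, so whether it keeps the reading frame open was not tested. It was held by 4 of 11 reads in replicate 1 (36.4%, exact interval 10.9% to 69.2%) and by 0 of 2 reads in replicate 2, which is too few to compare. All 10 other Flnc exons with at least 20 telling reads in each library, all in the 3′ part of the gene, were included in every read.

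Bag3 lies on the plus strand at chr7:128523616-128546981 (ENSMUSG00000030847.8) and has 1 annotated transcript of 4 exons and 2562 bases. Its product is the scaffold of the chaperone complex that clears filamin. Bag3 had 52 reads (65.2 CPM) in replicate 1 and 176 reads (110 CPM) in replicate 2. The ratio was 1.68 (1.23 to 2.34) with an adjusted p of 0.00563 in Fisher's exact test, under the 2-fold line. It would have been called at a line of 1.5-fold. With Known models only the ratio was 1.15 (adjusted p = 0.827), and without ISM and Genomic models it was 1.32 (adjusted p = 0.474, Fisher's exact test). The complete Bag3-201 held 26 reads (50.0%) and 61 reads (34.7%). A 2-exon model from chr7:128541807-128546981, with only the last intron, held 24 reads (46.2%) and 91 reads (51.7%). A single-exon model of the last exon held 2 and 20 reads. The Known share did not differ by the rule (adjusted p = 0.231, Fisher's exact test).

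Hspb8 encodes the partner of BAG3 and lies on the minus strand at chr5:116408491-116422864 (ENSMUSG00000041548.4). It had 288 reads (361 CPM) in replicate 1 and 398 reads (248 CPM) in replicate 2. The ratio was 0.688 (0.589 to 0.803), and its adjusted p of 2.87e-05 in Fisher's exact test came with a difference under 2-fold. Hspb8-201, with 3 exons and 1816 bases, held 270 reads (93.8%, 90.3% to 96.3%) and 323 reads (81.2%, 76.96% to 84.9%). That fall in the Known share passed the rule (adjusted p = 4.19e-05, Fisher's exact test). A single-exon model of 450 bases at the 3′ end, chr5:116408491-116408940, made up most of the difference, with 13 reads (4.51%) and 70 reads (17.6%). It lies wholly within the 840-base 3′ UTR. Where it begins is the annotated end of another Hspb8 transcript, so the edge in the files may not be where the reads began.

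Cryab encodes αB-crystallin and lies on the plus strand at chr9:50751325-50756636 (ENSMUSG00000032060.10). It had 189 reads (237 CPM) in replicate 1 and 973 reads (607 CPM) in replicate 2. The ratio was 2.56 (2.19 to 3.01), called higher (adjusted p = 5.35e-37, Fisher's exact test). Most Cryab reads in both libraries matched an annotated transcript: Known models held 95.2% (91.2% to 97.8%) and 95.8% (94.3% to 97.0%). Not all of these transcripts are complete, since Cryab-204, with 2 and 14 reads, is annotated as a retained intron without a start codon. Cryab-201 led with 154 reads (81.5%) and 857 reads (88.1%), a difference that did not pass (adjusted p = 0.0849, Fisher's exact test). Its middle exon was left out in 1 of 937 reads of replicate 2 and in 0 of 185 reads of replicate 1.

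Cryab reads belonged to models with more than 1 start. Reads of a model share its start in the files, so where single reads began is not held there. The start of Cryab-201, at base 50752907, was that of models holding 156 of 187 spliced reads in replicate 1 (83.4%, 77.3% to 88.4%). In replicate 2 such models held 861 of 956 (90.1%, 88.0% to 91.9%). A start 1030 bases upstream, at base 50751877, was that of models holding 19 reads (10.2%, 6.23% to 15.4%) and 44 reads (4.60%, 3.36% to 6.13%). It belongs mostly to Cryab-202, with 14 and 32 reads. Cryab-205, which starts at base 50753020, held 10 and 27 reads. The coding sequence of Cryab-201, Cryab-202 and Cryab-205 begins at the same base, 50753277, downstream of all 3 starts. Cryab-201 and Cryab-205 share a coding sequence of 525 bases and differ before it and after it, with annotated ends at bases 50756543 and 50756636. Cryab-202 is annotated with only 392 coding bases and no stop codon, and ends earlier, at base 50756359. Cryab-205 removes a short intron, at bases 50753096 to 50753185, that lies within the undivided first exon of Cryab-201. Reads keeping these bases made up 172 of 182 in replicate 1 (94.5%) and 905 of 932 in replicate 2 (97.1%). The models of Cryab outside the annotation, 9 and 41 reads, ended within 10 bases of base 50756630, 87 bases past the end of Cryab-201. That base is the annotated end of Cryab-203. The files may have set the models to annotated ends, so where single reads ended was not measured.

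Hspb2 is the neighbour of Cryab on the opposite strand, at chr9:50751078-50752354 (ENSMUSG00000038086.4). Its protein binds the myotonic dystrophy kinase and forms complexes with HSPB3. The main starts of Hspb2 and Cryab lie 614 bases apart and point away from each other. The upstream start of Cryab lies inside the intron of Hspb2-201. Hspb2 had 114 reads (143 CPM) in replicate 1 and 244 reads (152 CPM) in replicate 2. The ratio of 1.06 (0.849 to 1.34) did not differ beyond counting error (adjusted p = 0.820, Fisher's exact test), while that of Cryab, next to it, was 2.56. The intervals of the 2 ratios do not overlap. Hspb2-201 held 103 reads (90.4%) and 213 reads (87.3%). Of the other spliced reads, 5 and 8 used an unannotated splice site for the start of the intron, at bases 50751734 to 50751988. A single-exon model at the 3′ end held 4 and 15 reads.

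**Figure D4:**
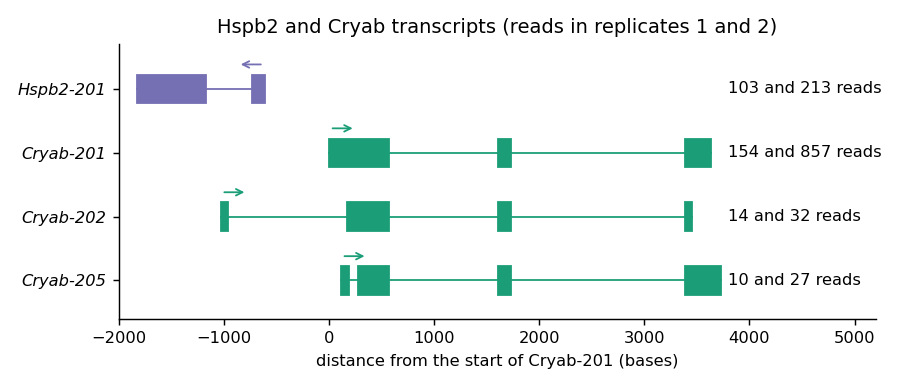
Exons (boxes) of Hspb2-201 and 3 Cryab transcripts by distance in bases from the start of Cryab-201, with arrows at the starts and the reads of each in replicates 1 and 2. Cryab-202 begins inside the intron of Hspb2-201, and Cryab-201 holds 154 and 857 reads.

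Hspb3 is the partner of Hspb2 and is transcribed from a gene of 1 exon on the minus strand, chr13:113662896-113663676 (ENSMUSG00000051456.4). It had 27 reads (33.9 CPM) and 53 reads (33.1 CPM), all of Hspb3-201. The ratio was 0.977 (0.603 to 1.61), with an adjusted p of 0.995 in Fisher's exact test. At these counts the interval runs from 1.66-fold lower to 1.61-fold higher.

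Hspb6 encodes HSP20, a small heat shock protein that is phosphorylated by cyclic nucleotide-dependent kinases, and lies on the plus strand at chr7:30552178-30555443 (ENSMUSG00000036854.14). It had 202 reads (253 CPM) in replicate 1 and 1056 reads (659 CPM) in replicate 2. The ratio was 2.60 (2.24 to 3.04), called higher (adjusted p = 3.89e-41, Fisher's exact test). Hspb6-201 held 176 reads (87.1%) and 888 reads (84.1%), and the Known share did not differ by the rule (adjusted p = 0.646, Fisher's exact test). The remaining reads were again of different single-exon models in the 2 libraries. In replicate 1, 21 reads (10.4%) lay in the last exon, at chr7:30554469-30555440. In replicate 2, 140 reads (13.3%) lay in 1 model across all of Hspb6-201, at chr7:30553268-30555440. Both introns were thereby called as spanned more often in replicate 2, 0 of 177 against 140 of 1030 reads for the first and 1 of 181 against 140 of 1053 for the second. The adjusted p-values were 2.90e-08 and 1.07e-06 in Fisher's exact test. Without single-exon models, 0 of 890 and 0 of 913 reads of replicate 2 spanned them. The files give 1 span for all 140 reads, so whether each of these reads spans the introns is not held there. Of the spliced reads, 1 and 10 ended the first intron at an unannotated site, at bases 30553533 to 30554191.

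Hspb7, a small heat shock protein of heart and skeletal muscle that acts on filamin C, lies on the plus strand at chr4:141420779-141425311 (ENSMUSG00000006221.7). It had 8 reads (10.04 CPM) in replicate 1 and 110 reads (68.7 CPM) in replicate 2. The ratio was 6.84 (3.35 to 16.2), the largest of the 10 (adjusted p = 2.67e-10, Fisher's exact test). Hspb7-201, with 3 exons and 2769 bases, held 5 and 45 reads. Counting only Known models, the ratio was 4.41 and the call held (adjusted p = 0.00194, Fisher's exact test). Single-exon Genomic models near the 3′ end held 0 and 61 reads, and single-exon ISM models 3 reads (37.5%) and 0 reads. With 8 reads in replicate 1 the shares of Hspb7 were not tested.

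For Cryab, Hspb6 and Hspb7, the direction was that of the 9 slow fibre markers, all of which were called higher in replicate 2. Of the 2 fast oxidative fibre markers, both were higher there, at 80.3 and 1103 CPM in sum. The part of these fibre types in the levels of the 3 genes was not tested. The 3 calls held with Known models alone, without ISM and Genomic models, without Atp2a1 in the total and with both other scalings.

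Hspb1 encodes HSP25, the mouse form of HSP27, and lies on the plus strand at chr5:135887919-135889563 (ENSMUSG00000004951.10). It had 152 reads (191 CPM) and 337 reads (210 CPM). The ratio of 1.10 (0.908 to 1.34) did not differ beyond counting error (adjusted p = 0.590, Fisher's exact test). Hspb1-201 held 145 reads (95.4%) and 326 reads (96.7%). A pseudogene, Hsp25-ps1, had 35 and 99 reads, and 62.7% of the 25-base words of Hspb1-201 occur in it, so reads could be split between the 2 loci. Of the other 9 genes, none shared over 0.740% of its words with any single other gene. That largest share was of Hspb7, with 20 of its 2701 words. Hspb7 nevertheless shared words with 1828 other genes, whereas Des did so with 5 and Flnc with 1. Whether these shared words affected the reads counted for Hspb7 was not tested.

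Across the 10 genes, Known models held 80.6% of the reads of replicate 1 and 49.6% of those of replicate 2, and without Des 83.4% and 81.3%. The Known share fell by the rule in 2 of the 9 members with at least 20 reads in each library, Des and Hspb8, and rose in none. Over 3204 genes tested, 11.0% were called and 10.7% were called lower in replicate 2, with medians of 81.0% and 73.5%. For the leading transcript, 3 of 8 members tested were called, Des, Flnc and Hspb8, against 16.5% of 3083 genes. In Des and Flnc the leading model was the pooled single-exon ISM models, for Des with 0 of 2234 and 4015 of 6071 reads. In Hspb8 it was Hspb8-201, with the same reads as in the test of the Known share. Leaving out ISM and Genomic models takes away the leading models of Des and Flnc, so it is not a separate check of their calls. After that, 7 members were tested and 0 were called by Fisher's exact test, and Flnc was below the read minimum. Of the 7, 1 (Cryab) had an unadjusted p under 0.05. No exon among the 23 member exons tested was called, with p = 1 for each in Fisher's exact test, against 0.0484% of 18577 exons. Of the member introns tested, 3 were called, 1 of the 8 of Des and 2 of the 2 of Hspb6, against 0.228% of 18854 introns. None was called among the introns tested of Flnc, Bag3, Cryab, Hspb1, Hspb2 and Hspb8. All 3 rested on the given spans of single-exon models, and the 2 of Hspb6 on the same 140 reads.

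**Figure D5:**
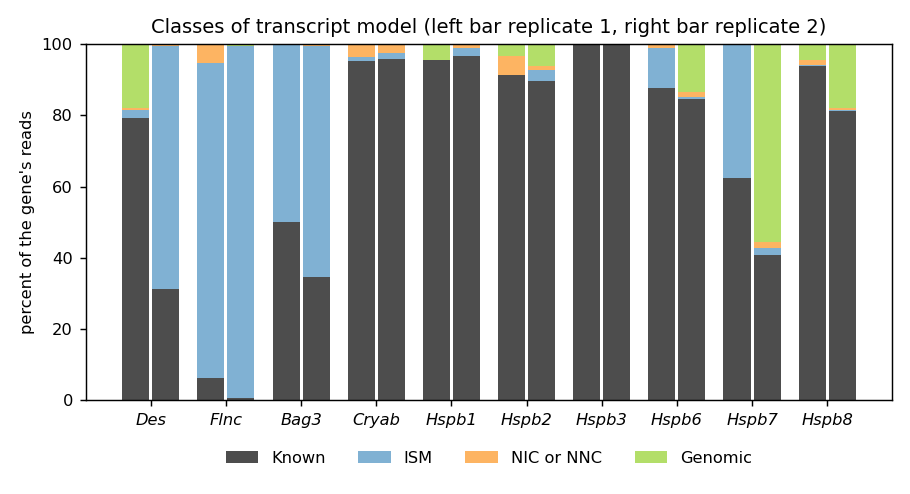
Percent of each gene's reads in Known, ISM, NIC or NNC, and Genomic models, with replicate 1 on the left and replicate 2 on the right of each pair. Known models (dark grey) fall from 79.2% to 31.3% in Des and stay above 95% in Cryab and Hspb1.

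The other genes of the pathway were read by the same rule, which called 11.3% of all genes. The remaining small heat shock genes on the list, Cryaa of the lens and Hspb9 and Odf1 of the testis, had 0 reads in both. Among 25 partners of chaperone-assisted autophagy, 22 were tested and 0 were called, although 9 had an unadjusted p under 0.05 and 5 an adjusted one in Fisher's exact test. Their median log2 ratio was 0.24. The most abundant was Hspa8, the constitutive HSP70 of the BAG3 complex, at 661 ± 76.7 CPM. Bag1, which competes with Bag3 for HSP70, had 254 ± 54.4 CPM, and Sqstm1, the autophagy receptor p62, had 218 ± 42.4 CPM.

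Of 13 heat shock factors and induced chaperones, all tested, 1 was higher in replicate 2 and 0 were lower, with a median log2 ratio of 0.08. The called gene was Hspe1, the co-chaperonin of mitochondria, at 85.3 and 174 CPM, 2.03-fold higher (1.56 to 2.69, adjusted p = 4.58e-07, Fisher's exact test). Hsp90ab1, the constitutive HSP90, led at 561 ± 190 CPM. The mitochondrial chaperones Hspa9 and Hspd1 followed at 296 ± 123 CPM and 196 ± 56.8 CPM. Of 18 intermediate filament genes and desmin partners, 10 were tested, 0 were higher and 1 was lower, with a median of -0.14. The lower gene was Mtm1, myotubularin, which binds desmin, with 17 and 11 reads (21.3 and 6.87 CPM, adjusted p = 0.0234, Fisher's exact test). The most abundant were Lmna (lamin A/C) at 210 ± 96.6 CPM, Neb (nebulin) at 166 ± 1.48 CPM and Plec (plectin, which links desmin to the Z-disc) at 158 ± 8.53 CPM.

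Of 22 filamins and partners of filamin C, 19 were tested, 2 were higher and 2 were lower, with a median of 0.01. Myoz2, a Z-disc protein of slow fibres that is also on the slow fibre list, had 0 and 482 reads. With 3 counts in place of 0 it was 79.9-fold higher in replicate 2, and the exact interval of the ratio begins at 64.8. Actn2, an α-actinin, was at 226 and 1036 CPM, 4.59-fold higher (3.93 to 5.38). Its fast-fibre counterpart Actn3 was at 9923 and 3491 CPM, 2.84-fold lower. Asb2, a ubiquitin ligase subunit that targets filamins, was at 631 and 308 CPM, 2.05-fold lower (adjusted p = 1.54e-27, Fisher's exact test). The most abundant of the list were Tcap (telethonin) at 7531 ± 3333 CPM, Actn3 at 6707 ± 4549 CPM and Myoz1 at 3670 ± 216 CPM.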

How the data were processed

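Per the README beside the files, the authors deposited transcript models and read counts made from filtered alignments to mm10 with GENCODE M21. The deposited counts are whole reads per model and library, listed from 1 read upward and not normalized. The classes of models are those of the deposited tables. The aligner, read correction and strand assignment, not given in the sources used here, could change the counts of single-exon models.

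Reads were summed per gene, and CPM were computed on reads in annotated genes. The 2 libraries were compared by Fisher's exact test (two-sided) with Benjamini-Hochberg adjustment over all features tested: genes with at least 10 reads (2-fold), and shares with at least 20 reads in each library (10 percentage points). Spliced models were matched by annotated transcript or intron chain, and unannotated single-exon models were pooled per gene and class. Intervals are exact (Clopper-Pearson, 95%) and, like the limit of 3 counts, cover counting error only.

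Alternatives were Known models only, no ISM and Genomic models, no Atp2a1 in the total, TMM factors (edgeR 4.0.16) and DESeq2 1.42.0 size factors (R 4.3.3), other read minimums and a 1.5-fold line. Leaving out single-exon models outside the annotation was chosen after seeing the data. The members and gene lists were chosen with earlier results of these data known. The 10 members were all named, with their models from 5% of the gene's reads in either library, and of each partner list the called genes and the 3 most abundant. Lesser models, the alternative introns and both Flnc exons were singled out after their values were seen. Motifs and words of 25 bases were read from M21 transcript sequences. Python 3.11.15, numpy, scipy and pandas were used.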

Additional observations from a re-analysis of the deposited data

Results flagged for a closer look

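Unannotated loci on the strand opposite Bag3 held 4 reads in replicate 2, above the 3 counts that a count of 0 allows, and 0 reads in replicate 1. These reads lie outside the gene's own models and enter no comparison above. Such loci opposite Hspb7 and Hspb8 held 2 reads each in replicate 2, and opposite Des 1 read, all under that limit. Strand assignment is not given in the sources used here.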

How the results depend on the processing

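The calls of Cryab, Hspb6 and Hspb7 kept their direction and their side of the threshold under all alternatives run, with ratios of 2.35 to 2.83, 2.39 to 2.80 and 4.41 to 6.84. Of 79 ratios of members under an alternative, 71 kept direction and side. Among the 79 are those without the read minimum and with the 1.5-fold line, which leave every ratio as it was and so could not change a direction. For Des the ratio reversed to 0.526 with Known models only, 0.597 without ISM and Genomic models and 0.597 without unannotated single-exon models. For Hspb2 it turned to 0.977 with Atp2a1 left out of the total, and for Hspb3 to 1.09 without ISM and Genomic models and 1.05 without unannotated single-exon models. A call appeared for Flnc at 0.0503 without ISM and Genomic models, which leave 11 and 1 reads, and for Bag3 at 1.68 with a 1.5-fold line. Gene calls numbered 911, and 1437 at that line. The split of higher and lower calls was 468 and 443, but 255 and 587 with Known models only, 348 and 568 without Atp2a1 in the total, 420 and 599 without unannotated single-exon models and 449 and 573 without ISM and Genomic models. The members' summed level of 5098 CPM fell to 3794 CPM without unannotated single-exon models, and was 4217 to 5980 CPM with either replicate left out. Known share calls numbered 214 instead of 352 without Genomic models, leading transcript calls 21 instead of 509 without ISM and Genomic models, and intron retention calls 8 instead of 43 without single-exon models. The median log2 ratio of all genes, 0.06, was -0.08 with Known models only and -0.07 without Atp2a1. No paired analysis was possible because there is 1 group, and with a replicate left out no ratio can be formed. Depth limits Flnc 5′ exons, Hspb3 and Hspb7 most, the last with 8 reads in replicate 1.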
